A study of Mus musculus with 6 samples.

Results

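Long-distance transport in neurons runs on 3 groups of microtubule motor genes, those of the kinesins, cytoplasmic dynein and its activator dynactin, and their expression is described here in mouse retinal ganglion cells (RGCs). RGCs send the axons of the optic nerve to the brain. The members were all entries named Kif with a number, Kifc1 to Kifc3, Kifap3, Klc1 to Klc4, any name starting with Dync1 or Dynl, and Dctn1 to Dctn6. This gave 42 gene names among the 10361 names of the expression table, with 44 assembled loci, because Kif21a and Dync1li2 each have 2 loci at the same coordinates. Expression is in FPKM, fragments scaled to the length of the transcript and to the number of mapped reads, which allows levels of different genes to be set side by side. Loci of 1 name were summed.

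The 6 poly-A RNA libraries came from wild-type mice of strain C57/6NCrl and fall into 3 groups of 2. Adult RGCs of the control group had been transduced with AAV2 that encodes the red fluorescent protein mCherry and a scramble shRNA mimic. In the adult miR-1247 group, AAV2 encoded the miR-1247-5p mimic, a copy of that microRNA. Both adult groups were enriched with antibody to Thy1, a surface protein of RGCs, and then sorted for mCherry, at about 5000 cells from 10 pooled retinas per condition. The untreated RGCs of embryonic day 18 (E18), about 50000 cells, were enriched on Thy1 only, without a vector or a sort. Age, vector, sorting and cell number therefore cannot be told apart between E18 and adult libraries. The labels do not state whether the 2 libraries of a group came from separate animals, so p-values here measure only how far these libraries lie apart, and that spread can be technical. In bulk samples such as these, fewer cells of a type and less RNA per cell cannot be told apart.

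Kinesins move along microtubules mostly towards their plus ends, which in axons point away from the cell body, and carry vesicles, mitochondria and cytoskeletal proteins outward. Cytoplasmic dynein, with the dynactin complex, moves cargo back, including endosomes that hold neurotrophin signals from the axon tip. RGC axons run from the retina to the brain, and mutations in several of these motor genes are known to cause axonal disease.

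Listed FPKM values summed to 339224 to 392238 per library, and the depth in reads is unknown because the table holds no counts. All 17 RGC marker genes had an entry, and their summed level was 3656 to 3695 FPKM in control, 2311 to 2337 in miR-1247 and 6737 to 6744 in E18 libraries. Lists for microglia and endothelial cells were not analysed here. The summed level of 5 Müller glia and astrocyte markers was 1063 to 1409 FPKM in control, 1713 to 1825 in miR-1247 and 166.9 to 167 in E18 libraries. Among them Glul had means of 292.7, 713.5 and 82.43 FPKM in the same order, with an SD of 242 in control and 116 in miR-1247. Means were 520.6, 522.1 and 9.19 for Aldoc, 378.1, 480.9 and 29.37 for Dkk3, and 43.84, 51.17 and 3.27 for Apoe. Vim, at 1.116, 1.491 and 42.73, was highest in E18. The defining glial markers Rlbp1, Slc1a3, Aqp4 and Gfap were not analysed here. Amacrine markers (5 of 11 listed) summed to 1198 to 1221 FPKM in control, 1063 to 1090 in miR-1247 and 845 to 876.3 in E18, most of it Calb2, at means of 900.7, 662.7 and 626 FPKM. The amacrine marker Gad2 had means of 81.84, 106.8 and 0.856 FPKM instead. Bipolar markers (3 of 8) summed to 25.15 to 30.04, 40.38 to 40.94 and 11.32 to 12.66 FPKM in the same order. The rod and cone genes Rom1 and Reep6 summed with 1 other to 45.65 to 46.79, 24.29 to 26.90 and 5.566 to 6.408 FPKM. The level of Mir1247 itself was not analysed here.

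The 42 motor genes took 0.736% and 0.794% of all listed FPKM in the control libraries, 0.679% and 0.625% in the miR-1247 libraries, and 0.892% and 0.903% in the E18 libraries. The 5 with the highest mean over the 6 libraries were Dynll2, Klc1, Dynlrb1, Kif5a and Kif5c. Dynll2, a dynein light chain of the LC8 type that also binds many other proteins, led the adult control at 465.6 ± 4.63 FPKM (SD, n = 2 libraries, as for all levels below). It was followed by Klc1, the main neuronal kinesin-1 light chain, at 283.1 ± 0.372 and Dynlrb1, a roadblock-type dynein light chain, at 252.4 ± 1.21. The order differed in E18. Klc1 was first there at 495.0 ± 19.9 FPKM and Kif5a, a kinesin-1 heavy chain, was second at 244.2 ± 2.90. Below these, Kif5c at 196.2 ± 0.724, Dync1i2 at 193.1 ± 0.677, Dynll2 at 187.4 ± 2.30, Dynlrb1 at 178.0 ± 13.3 and Dynll1 at 173.2 ± 26.7 lay close together, and the last 3 overlapped in their libraries. At the low end, Kif16b, Klc3, Dynlt1c and Kif22 had a control mean of 1.154 to 2.289 FPKM, Kif26a 0.598 and Dynlt1f 0.434. Of the kinesins that serve cell division, Kif22 alone of 9 listed names was measured. Genes such as Kif11, Kif23 and Kif17 were not analysed here.

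**Figure D1:**
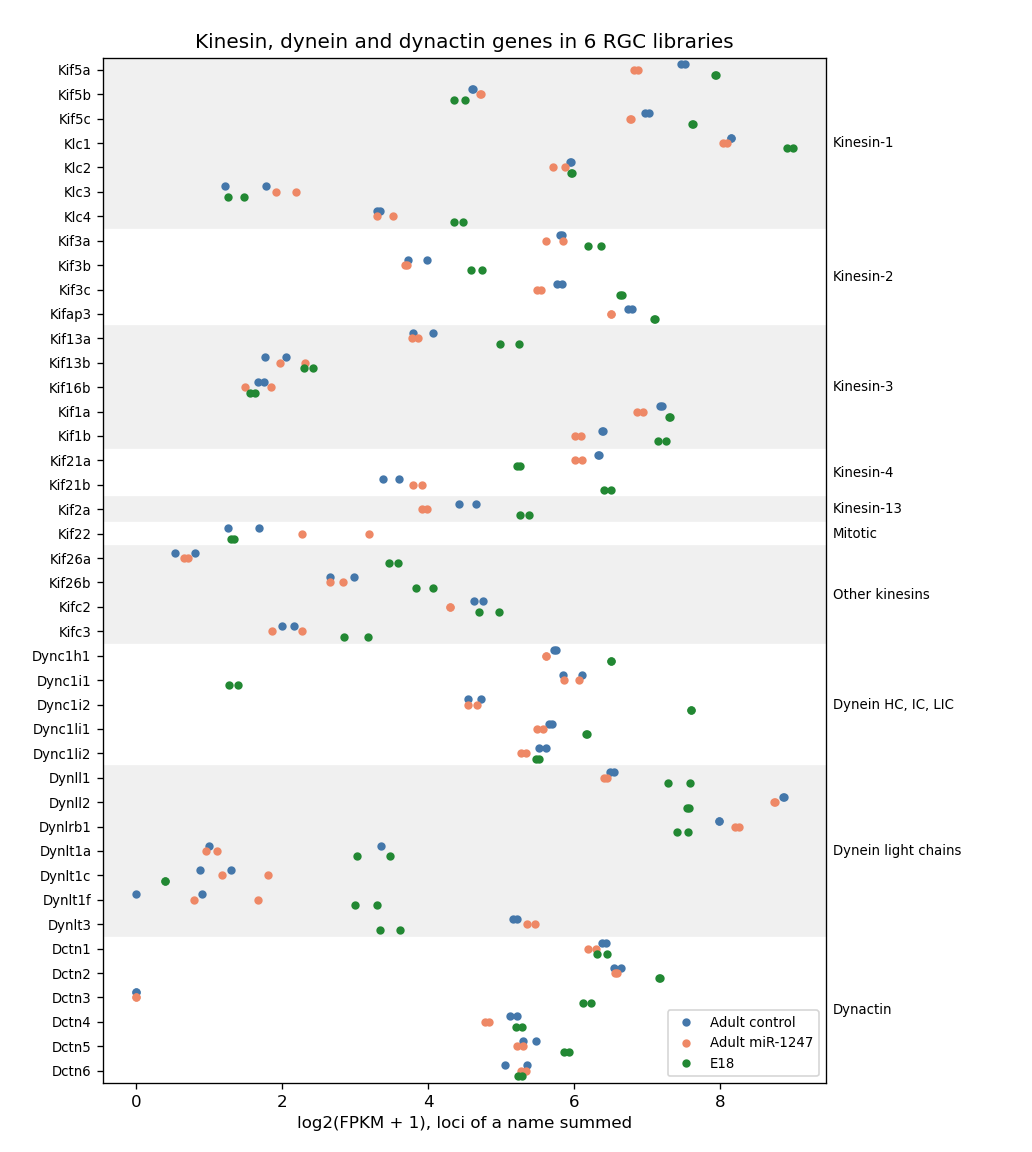
Level of each of the 42 motor genes in each library as log2(FPKM + 1), with loci of a name summed. Blue points are adult control, orange adult miR-1247 and green E18 libraries, 2 of each, with genes grouped by motor class. Points of a group lie close together for most genes, and the widest gap is in Dynlt1a, at 0.998 and 9.22 FPKM in the control libraries.

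The first comparison, E18 against adult control, asks how the motor genes differ between growing and mature RGCs. Motor genes were mostly higher in E18. With limma on log2(FPKM + 1) over all 9987 tested features and an adjusted p under 0.05, 23 of 42 members (54.8%) were higher, 5 (11.9%) were lower and 14 did not pass. Over all features, 40.2% were higher and 29.8% lower. Whether libraries overlap is given below as a description only, and its share over all features was not analysed here. The members' median log2 fold change was 0.476 and that of all features 0.161. With libraries scaled by the median ratio of their features these medians were 0.333 and 0.018. Of the 28 called members, 8 of the higher ones and 4 of the lower ones differed at least 2-fold on this scale, Dctn3 counted with them although no fold can be given for it (below).

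**Figure D2:**
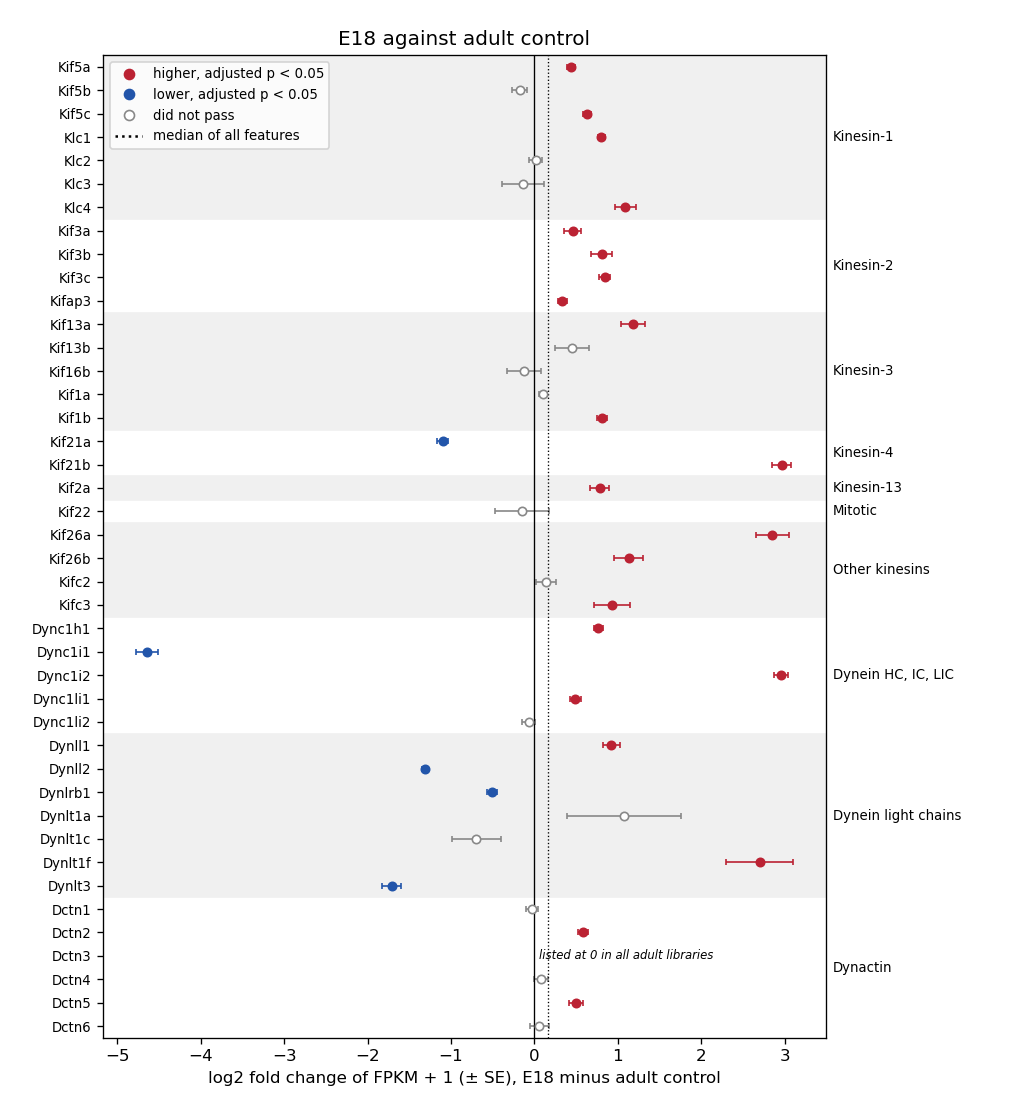
Log2 fold change of FPKM + 1 (± SE) of each motor gene, E18 minus adult control, in motor classes. Red points were higher and blue points lower at a limma adjusted p under 0.05, open points did not pass, and the dotted line is the median of all features (0.161). All 4 kinesin-2 genes lie to the right of that line, and Dync1i1 lies farthest to the left at -4.65.

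The 2 dynein intermediate chains, the subunits through which dynein binds dynactin, exchanged their places. Dync1i1 was at 68.07 and 56.84 FPKM in the control libraries, 66.23 and 57.25 in the miR-1247 libraries, and 1.418 and 1.629 in the E18 libraries. Dync1i2 was at 22.44 and 25.47 in control, 24.43 and 22.41 in miR-1247, and 192.6 and 193.5 in E18. Adult libraries of both treatments overlapped for both genes, and both E18 libraries lay far outside them, below for Dync1i1 and above for Dync1i2. The log2 fold change in E18 was -4.65 ± 0.129 for Dync1i1 (limma adjusted p = 5.48e-07) and 2.96 ± 0.0858 for Dync1i2 (limma adjusted p = 5.96e-07). Dync1i1 made up 75.2% and 69.1% of the summed intermediate chain FPKM in control and 0.731% and 0.835% in E18. The sum itself was 90.51 and 82.3 FPKM in control and 194 and 195.2 in E18.

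The promoters of the intermediate chains are shown because these genes differed most among the dynein subunits, and in opposite directions. The sequences are from RefSeq's GRCm38.p6 annotation, on the plus strand, from 250 bases before to 50 bases after the annotated start. Capitals mark the GC box, GGGCGG or its reverse complement CCGCCC. The Dync1i1 window is chr6:5725389-5725688. The Dync1i2 window is the second of 2 annotated starts, chr2:71211696-71211995.
Dync1i1: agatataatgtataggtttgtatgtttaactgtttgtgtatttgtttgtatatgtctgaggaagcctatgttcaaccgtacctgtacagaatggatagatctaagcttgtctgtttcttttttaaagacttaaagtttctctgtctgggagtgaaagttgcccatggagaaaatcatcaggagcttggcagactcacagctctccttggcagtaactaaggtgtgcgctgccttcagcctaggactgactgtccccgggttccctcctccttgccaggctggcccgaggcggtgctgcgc
Dync1i2: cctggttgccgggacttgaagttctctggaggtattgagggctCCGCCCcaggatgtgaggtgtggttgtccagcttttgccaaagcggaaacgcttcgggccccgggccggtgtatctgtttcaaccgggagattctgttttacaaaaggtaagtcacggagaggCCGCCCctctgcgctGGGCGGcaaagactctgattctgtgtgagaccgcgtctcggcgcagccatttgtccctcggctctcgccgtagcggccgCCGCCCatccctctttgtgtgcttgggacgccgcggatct
The Dync1i1 window has a base composition of 46.7% G or C, 6 CpG pairs and none of the boxes. The Dync1i2 window has 61.0% G or C, 25 CpG pairs and 4 of the boxes. That of the first start has 50% G or C and 6 CpG pairs, close to Dync1i1. The 2 windows of Dync1i2 overlap, and the only box of the first one lies in the overlap and is among those 4. Other promoter motifs searched on both strands were the CCAAT box, the TATA box with the letters TATAAA, the E-box with the letters CACGTG and the cyclic AMP response element with the palindrome TGACGTCA. None of these was found in the windows of the intermediate chains. Among 32851 windows of the same length, 35.7% hold GGGCGG on either strand, 37.4% the CCAAT box, 13.6% the TATA box, 7.15% the E-box and 1.79% the cyclic AMP response element. The 36 windows of the 30 members found in the RefSeq table had a median of 62.1% G or C and 23 CpG pairs, against 52.7% and 7 over all windows.

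The other core dynein subunits differed less. Dync1h1, the heavy chain that holds the motor domain, was at 52.01 and 52.76 FPKM in control and at 90.02 and 89.90 in E18, a log2 fold change of 0.77 ± 0.0583 (limma adjusted p = 3.97e-05). Dync1li1, a light intermediate chain that binds cargo adaptors, was at 49.41 and 50.78 in control and at 71.07 and 70.32 in E18 (0.49 ± 0.0649, limma adjusted p = 0.000567). Both E18 libraries were above both control libraries for each of these genes. Dync1li2, the other light intermediate chain, was at 48.10 and 44.98 in control and 43.72 and 44.86 in E18 and did not pass (-0.07).

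Of 7 dynein light chain genes 2 were higher and 3 lower in E18, beside 40.2% and 29.8% of all features. The LC8 pair moved in opposite directions. Dynll1 was at 88.64 and 92.04 FPKM in control and 154.4 and 192.1 in E18 (0.92 ± 0.101, limma adjusted p = 0.000220). Dynll2 was at 462.3 and 468.9 in control and 189.0 and 185.8 in E18 (-1.31 ± 0.0376, limma adjusted p = 5.84e-07). For neither gene did E18 overlap with control. Dynll1 thus took 16.1% and 16.4% of the LC8 sum in control and 45.0% and 50.8% in E18. Dynlt3, a Tctex-type light chain, was at 36.22 and 34.76 in control and 9.154 and 11.25 in E18 (-1.71 ± 0.114, limma adjusted p = 2.24e-05). Dynlrb1 was at 253.3 and 251.6 in control and 168.6 and 187.3 in E18 (-0.50 ± 0.0593, limma adjusted p = 0.000315). E18 libraries were the lower ones for both of these light chains.

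Dynlt1a, Dynlt1c and Dynlt1f are nearly identical Tctex-type copies, between which the counting could split reads, so their single values are uncertain. Dynlt1f was at 0 and 0.869 FPKM in control and 6.981 and 8.897 in E18, and passed (limma adjusted p = 0.000950). Dynlt1a was at 0.998 and 9.22 in control and 7.165 and 10.1 in E18, and Dynlt1c at 0.839 and 1.47 against 0.316 in both E18 libraries. Neither of those copies passed. The sum of the copies was 1.837 and 11.56 FPKM in control, 4.390 and 4.413 in miR-1247, and 14.46 and 19.31 in E18. On the sum, too, E18 libraries were highest, but control libraries differed widely from each other.

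**Figure D3:**
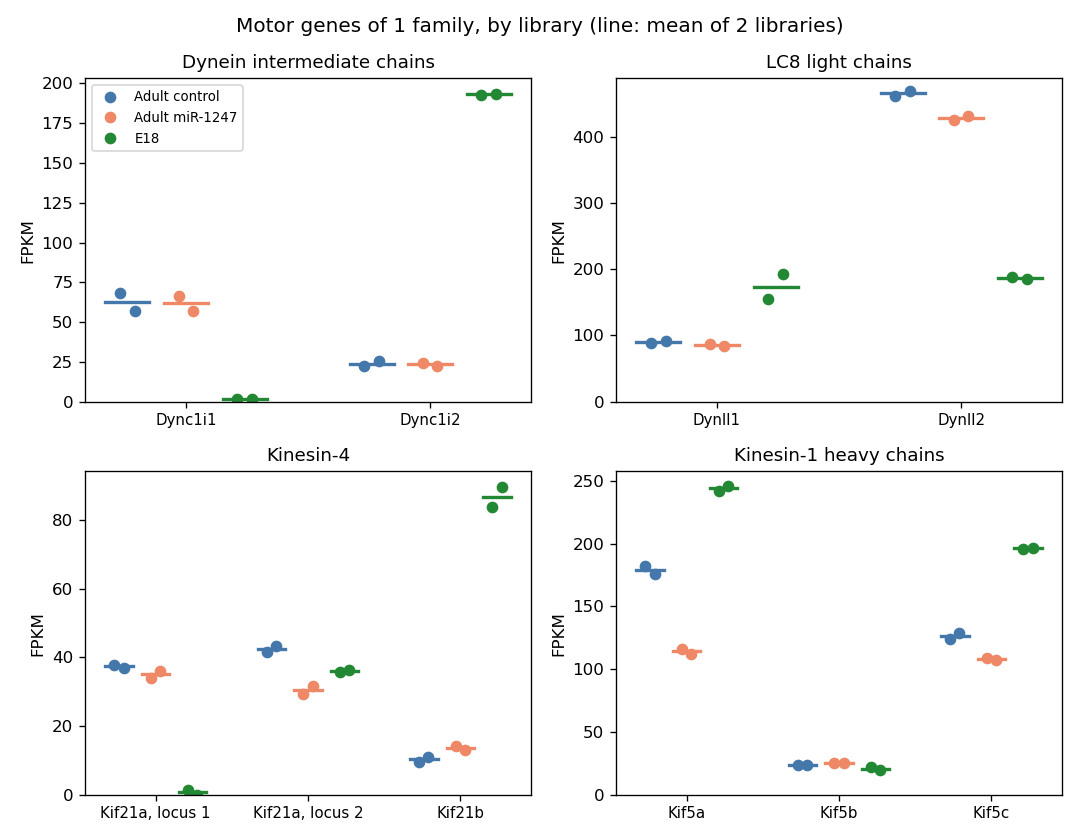
FPKM of motor genes of 1 family in each library, with a line at the mean of the 2 libraries of a group. Blue is adult control, orange adult miR-1247 and green E18, and Kif21a is shown by locus. Dync1i1 and Dync1i2, and Dynll1 and Dynll2, differ in opposite directions between E18 and adult libraries, and Kif5a is lowest in the miR-1247 libraries.

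Dynactin was measured through Dctn1 to Dctn6, of which 3 were higher in E18 and none lower. Over all features these shares were 40.2% and 29.8%. Dctn2, the dynamitin of the shoulder, was at 92.08 and 98.69 FPKM in control and 144.0 and 142.9 in E18 (0.58, limma adjusted p = 0.000126). Dctn5, a subunit of the pointed end, was at 43.72 and 38.50 in control and 59.72 and 56.99 in E18 (0.50, limma adjusted p = 0.00200). Both E18 libraries were above both control libraries for each. Dctn1, the subunit that itself binds microtubules, was at 85.59 and 82.21 in control and 78.50 and 86.17 in E18. Dctn4 was at 36.06 and 33.81 against 35.89 and 37.97, and Dctn6 at 40.00 and 32.05 against 36.56 and 38.10. These pointed-end subunits and Dctn1 overlapped between the groups and did not pass, with log2 fold changes of -0.03 to 0.08.

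The third dynactin call is Dctn3, a shoulder subunit (chromosome 4, 41646764 to 41774247 in mm39), and its value is uncertain. Dctn3 was listed at 0 in all 4 adult libraries and at 73.94 and 68.56 FPKM in E18, so no fold is given. Other genes listed at these coordinates, among them Cntfr, Rpp25l, Ccl27a, Galt and Il11ra1, were likewise at 0 in all 4 adult libraries. In E18, Cntfr stood at 49.14 and 54.97 FPKM and Ccl27a at 54.63 and 57.25. Over the whole series 120 loci were at 0 in all 4 adult libraries, of which 11 were above 10 FPKM in both E18 libraries. An exact 0 over a whole block of genes can be a failed estimate. Without Dctn3, 22 motor genes were higher in E18.

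Among kinesin-1 genes, 4 of 7 were higher in E18 and none lower, where 40.2% of all features were higher and 29.8% lower. Kif5a was at 182.5 and 176.0 FPKM in control and 242.1 and 246.2 in E18 (0.44 ± 0.0471, limma adjusted p = 0.000193). Kif5c, also a neuronal heavy chain, was at 123.9 and 128.9 in control and 195.7 and 196.7 in E18 (0.63 ± 0.0479, limma adjusted p = 4.02e-05). Kif5b, the heavy chain found in most tissues, was at 23.32 and 23.62 in control and 21.82 and 19.50 in E18 and did not pass (-0.18, limma adjusted p = 0.127). The neuronal heavy chains were thus above both control libraries in E18, and Kif5a kept 52.7% and 53.2% of the summed heavy chain FPKM against 55.4% and 53.6% in control. Of the cargo-binding light chains, Klc1 was at 282.8 and 283.4 FPKM in control and 509.1 and 480.9 in E18 (0.80 ± 0.0456, limma adjusted p = 1.10e-05). Klc4 was at 9.113 and 8.865 in control and 19.40 and 21.24 in E18 (1.09 ± 0.126, limma adjusted p = 0.000285). Klc2, at 60.47 and 61.28 against 61.43 and 61.66, did not pass, nor did the weakly expressed Klc3. Klc1 and Klc4 in E18 lay above both control libraries, and for Klc2 all 4 libraries lay between 60.47 and 61.66 FPKM.

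All 4 measured kinesin-2 genes were higher in E18, as were 40.2% of all features. These form the motor that serves cilia and, in neurons, carries vesicles, with Kifap3 as the subunit that binds cargo. Kif3a was at 54.73 and 55.90 FPKM in control and 71.71 and 81.85 in E18 (0.46, limma adjusted p = 0.00594). Kif3b was at 12.19 and 14.80 against 25.57 and 23.11 (0.81, limma adjusted p = 0.00120), and Kif3c at 55.87 and 53.48 against 99.90 and 97.86 (0.84, limma adjusted p = 3.60e-05). Kifap3 was at 105.8 and 110.1 against 137.5 and 135.6 (0.34, limma adjusted p = 0.00107). In none of the 4 genes did the E18 and control libraries overlap. That describes these libraries and adds no test, since its share over all features was not analysed.

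Kinesin-3 motors carry synaptic vesicle precursors, dense-core vesicles and endosomes. In E18, 2 of 5 were higher, a share near the 40.2% of all features. Kif13a, which moves recycling endosomes, was at 12.91 and 15.74 FPKM in control and 37.04 and 30.58 in E18 (1.18 ± 0.139, limma adjusted p = 0.000314). Kif1b was at 83.22 and 82.66 in control and 141.4 and 151.4 in E18 (0.81 ± 0.0611, limma adjusted p = 3.86e-05). Its relative Kif1a, the main carrier of synaptic vesicle precursors, was at 144.1 and 147.1 against 156.3 and 157.7 and did not pass (0.11, limma adjusted p = 0.0930). E18 libraries were the higher ones in all 3 genes. Kif13b and Kif16b, at 1.819 to 4.346 FPKM over the 6 libraries, did not pass.

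The kinesin-4 motors Kif21a and Kif21b, which restrain microtubule growth, differed in opposite directions. Kif21b was at 9.416 and 11.10 FPKM in control and 83.79 and 89.65 in E18, a log2 fold change of 2.97 ± 0.110 (limma adjusted p = 1.78e-06). Kif21a summed to 79.46 and 80.21 in control and 37.19 and 36.32 in E18 (-1.10 ± 0.0649, limma adjusted p = 1.31e-05). Neither gene's E18 libraries overlapped with control. Kif21a has 2 loci over chromosome 15, 90817226 to 90934151 in mm39. The first was at 37.89 and 36.99 FPKM in control and at 1.455 and 0 in E18, and the second at 41.57 and 43.22 in control and at 35.74 and 36.32 in E18. Most of the lower sum in E18 therefore came from the first locus. Fitted alone, the second locus differed by -0.23 ± 0.0754 in E18 (limma adjusted p = 0.0339), and the reads of both loci may have been divided differently between groups.

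Among the remaining kinesins, Kif26a and Kif26b, atypical kinesins without motor activity, were higher in E18. Kif26a was at 0.448 and 0.749 FPKM in control and 10.06 and 11 in E18 (2.86 ± 0.195, limma adjusted p = 2.46e-05), and Kif26b at 6.887 and 5.314 against 15.70 and 13.30 (1.13 ± 0.171, limma adjusted p = 0.00107). Kif2a, a kinesin that shortens microtubules from their ends, was at 24.15 and 20.39 in control and 40.64 and 37.18 in E18 (0.78, limma adjusted p = 0.000800). All 3 had both E18 libraries above both control libraries. Of the minus-end-directed Kifc2 and Kifc3, Kifc3 was higher in E18 (0.93 ± 0.213, limma adjusted p = 0.00712), at 8.055 and 6.194 against 3.001 and 3.489 FPKM. Without E18 replicate 1 Kifc3 did not pass (limma adjusted p = 0.0516). Kifc2, at 26.04 and 23.76 in control and 24.85 and 30.38 in E18, overlapped and did not pass. Kif22, which works on chromosomes in mitosis, was at 1.385 and 2.213 in control and 1.540 and 1.457 in E18 and did not pass.

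Other cell types could move with this comparison, and their part was not tested. In E18, 4 of 5 measured proliferation and progenitor markers were higher, with summed levels of 97.53 to 99.0 FPKM against 44.47 to 46.12 in control, and 24 of the 29 listed, Mki67 and Top2a among them, were not analysed here. The RGC markers had 14 of 17 higher and 3 lower in E18. Of the glial markers 4 of 5 were lower, and Vim was higher (4.41, limma adjusted p = 1.49e-05). Amacrine markers had 4 of 5 lower and 1 higher, and bipolar markers 2 of 3 lower. The 2 tested rod and cone markers and the 2 tested oligodendrocyte markers were lower. Ccdc39 and Ccdc40, the 2 tested of 8 markers of multiciliated cells, were higher. Beside these, 40.2% of all features were higher and 29.8% lower.

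The second comparison, adult miR-1247 against adult control, asks what the microRNA mimic does to adult RGCs. Motor genes that passed were all lower. With limma, 9 of 42 members (21.4%) were lower, none was higher and 33 did not pass. Over all features 6.22% were lower and 3.53% higher. Of all calls, 36.2% were thus higher, and 46.6% with libraries scaled by the median ratio. An unadjusted p under 0.05 was reached by 15 members. The median log2 fold change was -0.081 for the members and -0.029 for all features, and no called member differed 2-fold. All 9 were kinesin genes or dynactin, with 2 of 7 in kinesin-1, 2 of 4 in kinesin-2, 2 of 5 in kinesin-3, 1 of 2 in kinesin-4, Kif2a, and 1 of 6 in dynactin. None of the 12 dynein genes passed.

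**Figure D4:**
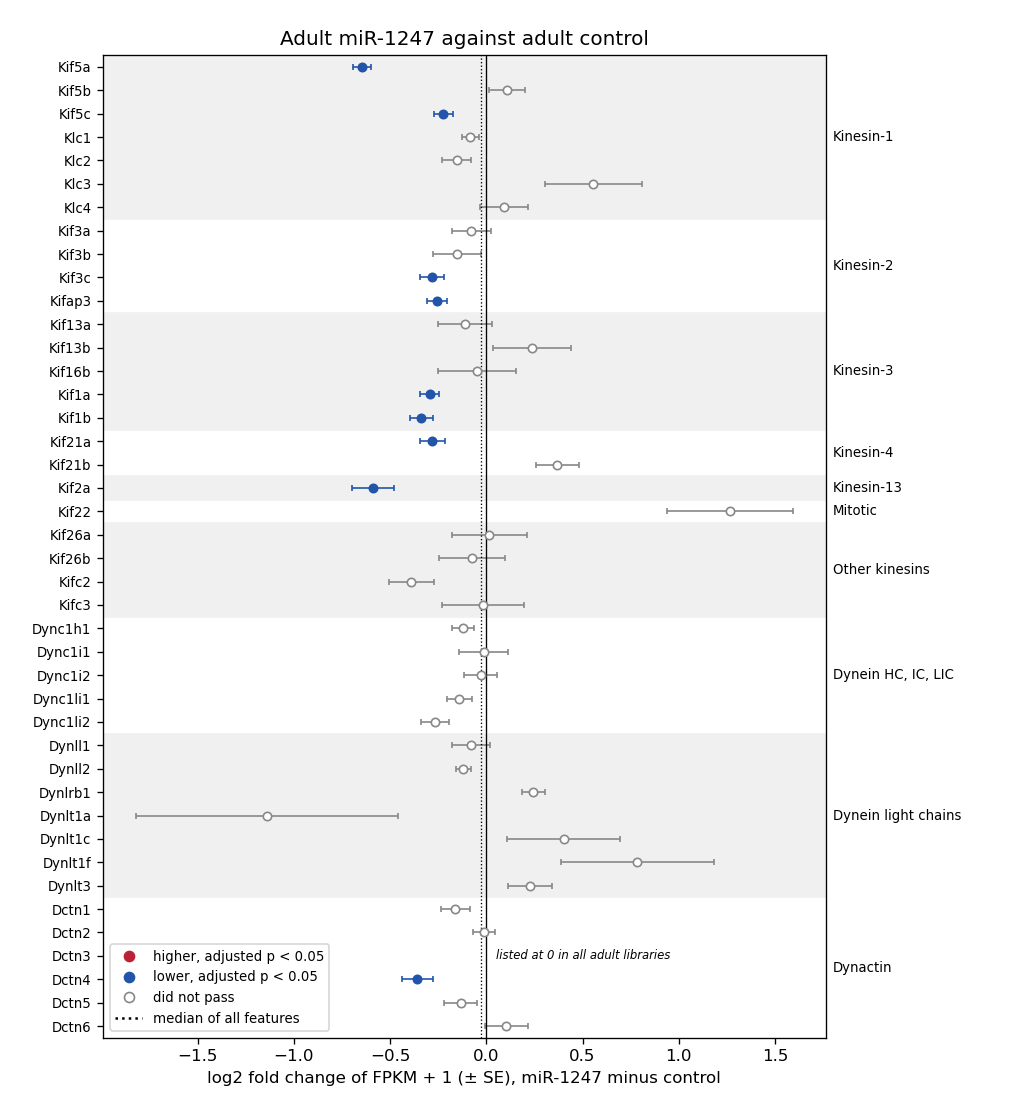
Log2 fold change of FPKM + 1 (± SE) of each motor gene, adult miR-1247 minus adult control, in motor classes. Blue points were lower at a limma adjusted p under 0.05, open points did not pass, no gene was called higher, and the dotted line is the median of all features (-0.029). Kif5a at -0.65 and Kif2a at -0.59 are the lowest called genes.

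Kif5a had the lowest fold change of the called genes (chromosome 10, 127061565 to 127100411 in mm39). It was at 182.5 and 176.0 FPKM in control and 115.9 and 112.4 in the miR-1247 libraries, against 242.1 and 246.2 in E18. Libraries of each group lay close together, and the miR-1247 pair was the lowest. The log2 fold change was -0.65 ± 0.0471 (limma adjusted p = 0.00208). The summed FPKM of the kinesin-1 heavy chains was 329.7 and 328.5 in control and 249.9 and 245.4 in miR-1247, and the share of Kif5a was 46.4% and 45.8% in miR-1247. Kif5c was at 123.9 and 128.9 in control and 108.6 and 107.7 in miR-1247 (-0.22 ± 0.0479, limma adjusted p = 0.0388). Kif5b was at 23.32 and 23.62 against 25.42 and 25.30 and did not pass (0.11, limma adjusted p = 0.493).

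The second of the called kinesins was Kif2a, at 24.15 and 20.39 FPKM in control and 14.81 and 14.04 in miR-1247 (-0.59 ± 0.111, limma adjusted p = 0.0283). Kif1b was at 83.22 and 82.66 in control and 63.73 and 67.17 in miR-1247 (-0.34 ± 0.0611, limma adjusted p = 0.0253). Kif1a was at 144.1 and 147.1 against 121.5 and 115.7 (-0.29 ± 0.0499, limma adjusted p = 0.0218). Both miR-1247 libraries were below both control libraries for these genes. Of kinesin-2, Kif3c was at 55.87 and 53.48 against 45.63 and 43.87 (-0.28 ± 0.0625, limma adjusted p = 0.0408). Kifap3 was at 105.8 and 110.1 against 90.17 and 90.04 (-0.26 ± 0.0510, limma adjusted p = 0.0320). Their partners Kif3a and Kif3b did not pass, and Kif3a overlapped between the groups. Kif21a was at 79.46 and 80.21 against 63.49 and 67.72 (-0.28 ± 0.0649, limma adjusted p = 0.0452), and its second locus fitted alone gave -0.46 ± 0.0754 (limma adjusted p = 0.0241). In dynactin, Dctn4 was at 36.06 and 33.81 against 26.40 and 27.63 (-0.36 ± 0.0811, limma adjusted p = 0.0427), with no overlap for either gene.

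Kif5a alone kept its call when each of the 6 libraries was left out in turn, with an adjusted p of at most 0.0269 in limma, and under all 11 other settings. Each of the other 8 calls was lost in all 6 of those fits, though the fold changes stayed close, such as -0.25 to -0.19 for Kif5c, -0.40 to -0.31 for Dctn4 and -0.37 to -0.30 for Kif1b. Over all features the lower calls, 621 as reported, were likewise 88 to 181 in those fits. The 4 calls with the highest adjusted p, those of Kif5c, Kif3c, Kif21a and Dctn4, were also lost when libraries were scaled by the median ratio, at log2 fold changes of -0.19, -0.25, -0.24 and -0.32.

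**Figure D5:**
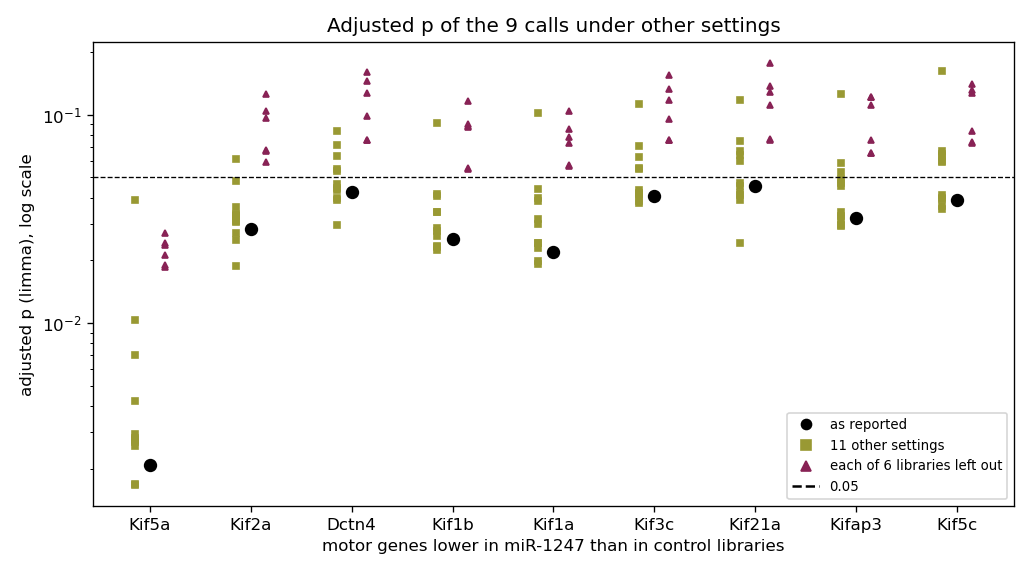
Limma adjusted p (log axis) of the 9 motor genes lower in miR-1247 than in control libraries: as reported (black), under 11 other settings (squares) and with each of 6 libraries left out (triangles). The dashed line is 0.05. All triangles of Kif5a are below the line, the highest at 0.0269, and those of the other 8 genes are above it.

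Several motor genes without a call were close to one. Dynlrb1 was at 253.3 and 251.6 FPKM in control and 304.9 and 293.4 in miR-1247, both miR-1247 libraries being higher (0.24 ± 0.0593, limma adjusted p = 0.0515). Kif22 was at 1.385 and 2.213 in control and 3.836 and 8.153 in miR-1247, with a wide gap within the latter (1.27 ± 0.327, limma adjusted p = 0.0597). Dync1li2 was at 48.10 and 44.98 against 37.50 and 39.59 (-0.27, limma adjusted p = 0.0712), and Kif21b at 9.416 and 11.10 against 14.13 and 12.89 (0.37, limma adjusted p = 0.0845). Kifc2 was at 26.04 and 23.76 against 18.73 and 18.75 (-0.39, limma adjusted p = 0.0868). None of the last 3 genes passed. That their libraries did not overlap is a description only, since its share over all features was not analysed. Dync1h1, at 52.01 and 52.76 against 48.20 and 47.87, and both intermediate chains had log2 fold changes of -0.12 to -0.01 and did not pass. Dync1i1 and Dync1i2 thus had overlapping adult libraries, far from their E18 levels. Dynlt1a was at 0.946 and 1.162 in miR-1247 and had its wide gap in control. It did not pass (-1.14, limma adjusted p = 0.323), but without control replicate 1 its log2 fold change was -2.32 with an adjusted p of 0.0307.

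The light chains of both motors gave no call. Klc1 was at 282.8 and 283.4 FPKM in control and 273.0 and 261.9 in miR-1247 (-0.08, limma adjusted p = 0.288), and Klc2 at 60.47 and 61.28 against 57.92 and 51.42 (-0.15, limma adjusted p = 0.230). Dynll2 was at 462.3 and 468.9 against 425.3 and 431.7 (-0.12, limma adjusted p = 0.0949), and Dynll1 at 88.64 and 92.04 against 86.52 and 84.30 (-0.08, limma adjusted p = 0.648). Each of these was lower in both miR-1247 libraries, by steps that did not pass. Dynlt3 was at 36.22 and 34.76 against 43.31 and 40.10 (0.23, limma adjusted p = 0.248), higher in both miR-1247 libraries. Of dynactin, Dctn1 was at 85.59 and 82.21 against 71.97 and 78.08 (-0.16, limma adjusted p = 0.210), and Dctn2, Dctn5 and Dctn6 had log2 fold changes of -0.13 to 0.10. Dctn2 and Dctn6 overlapped between the groups.

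RGC markers moved with this comparison, and their part in the motor gene values was not tested. Of 17 RGC markers 16 were lower in the miR-1247 libraries and none higher, with a median log2 fold change of -0.73. Of the glial markers 1 of 5 was higher, Dkk3, and Glul did not pass (limma adjusted p = 0.116). Of the amacrine markers Pax6 was higher (0.42, limma adjusted p = 0.00871), Calb2 lower (-0.44, limma adjusted p = 0.00225), and Gad2, Slc6a9 and Npy did not pass. The oligodendrocyte marker Mbp was at 24.58 ± 0.478 FPKM in control and 38.53 ± 4.15 in miR-1247 (limma adjusted p = 0.0376). Cnp, the other one measured, was at 11.49 ± 0.508 and 10.92 ± 1.68 and did not pass, and Mag and Mog were not analysed here.

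Sequences bearing on the mimic are shown so that the seed can be compared with the site found in Kif2a, a called gene. A microRNA pairs with target transcripts mainly through its seed, bases 2 to 8, written here in capitals from RefSeq's GRCm38.p6 table (chromosome 12, 110278094 to 110278115, minus strand).
miR-1247-5p: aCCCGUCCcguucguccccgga
The full seed match is GGACGGG, and the 6-base match is GACGGG. Canonical 3′ untranslated regions of GENCODE vM39 on GRCm39 held the 6-base match in 5 of 42 members (11.9%) and in 882 of 9855 tested names (8.95%). The full match was in 1 member (2.38%), Dctn4, and in 320 of the tested names (3.25%). Among the 9 lower genes, Dctn4 and Kif2a had a match. The full match of Dctn4 is at position 1808 of 2339 bases, and the sequence around it is not shown here. In Kif2a the match is followed by an A opposite the first base of the microRNA. It lies at position 1653 of 4263 bases, in chr13:107096979-107097006, minus strand. The matches of Dync1h1 (chr12:110633340-110633367, plus strand) and Kif26a (chr12:112147777-112147804, plus strand) are shown beside it. Neither gene passed, but Kif26a, at 0.448 to 0.749 FPKM in the adult libraries, was too low for a fall to be seen. The effect of a match was not tested. Capitals mark the match.
Kif2a: gtttgtttcaaaGACGGGAggaagaatg
Dync1h1: aacactaagcatGACGGGctcccgcctc
Kif26a: accgccaacaaaGACGGGggtgtgggtt
The other member with a match was Dctn3, listed at 0 in the adult libraries. The canonical region of Kif5a, 728 bases long, held no match, nor did those of Kif1a at 3538 and Kif1b at 4607 bases, Kif3c, Kif5c, Kifap3 and Kif21a. A match is a description of these letters and not a site of binding, and the absence of one says only that these letters are not in this region.

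In the third comparison, E18 against adult miR-1247, 27 of 42 members (64.3%) were higher in E18, 9 (21.4%) lower, and 6 did not pass. Over all features 41.5% were higher and 28.4% lower with limma. This comparison shares its libraries with the other 2, so its values are only set beside theirs. Kif5a was 1.09 ± 0.0471 higher in E18 than in miR-1247 on the log2 scale, against 0.44 higher than in control. Kif2a was 1.37 ± 0.111 higher, against 0.78. Kif1a (0.40, limma adjusted p = 0.000407), Dctn4 (0.44, limma adjusted p = 0.00277) and Kifc2 (0.53, limma adjusted p = 0.00629) passed here and not against control. Among those lower in E18, Kif22 (-1.41, limma adjusted p = 0.00751), Klc3 (-0.69, limma adjusted p = 0.0455) and Kif5b (-0.29, limma adjusted p = 0.0294) passed here and not against control. The Dynlt1 copies Dynlt1a (2.21, limma adjusted p = 0.0241) and Dynlt1c (-1.10, limma adjusted p = 0.0137) did too. Of these calls, 4 were lost when single libraries were left out. Klc3 and Dynlt1a kept the call in 2 of 6 fits with 1 library left out, losing it without either miR-1247 or either E18 library (largest limma adjusted p 0.193 and 0.136). Kif5b kept it in 3 of 6, losing it without either miR-1247 library or E18 replicate 2 (0.122), and Dynlt1c in 3 of 5, losing it without either E18 library (0.0519). The difference between these pairs of values is miR-1247 against control itself, which Kif5a, Kif2a, Kif1a and Dctn4 passed and Kifc2, Kif22, Klc3, Kif5b and the Dynlt1 copies did not. The values of Dync1i1 (-4.63) and Dync1i2 (2.99) lay next to those against control.

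Genes that work with the motors were described through 2 companion lists. Of 12 measured dynactin filament subunits and dynein regulators, 5 were higher and 2 lower in E18 than in control, with a median log2 fold change of 0.051 against 0.161 over all features, of which 40.2% were higher and 29.8% lower. Mapre1, a protein that tracks growing microtubule ends, was 2.37 ± 0.0972 higher (limma adjusted p = 2.72e-06). Capza1, 1 of the subunits that cap the dynactin filament, was 1.91 ± 0.216 higher (limma adjusted p = 0.000257). Its means were 4.347 FPKM in control and 19.15 in E18. The more abundant cap subunits Capza2 (74.85 and 75.32) and Capzb (89.59 and 95.35) did not pass. The actin-related filament proteins Actr1a (0.42, limma adjusted p = 0.000809) and Actr1b (-0.80, limma adjusted p = 7.39e-05) differed in opposite directions, and Mapre3 was lower (-1.05, limma adjusted p = 2.19e-05). In miR-1247 against control 1 of these 12 passed, Pafah1b1, the dynein regulator LIS1, which was lower (-0.28, limma adjusted p = 0.0197). Over all features 6.22% were lower and 3.53% higher there. Calls in the companion lists were not followed in the fits with a library left out.

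Of 40 measured cargo adaptors, 13 were higher and 12 lower in E18 than in control, with a median of 0.066, and these shares lie near or below the same background. The highest were Hook2, a dynein adaptor of centrosomes (2.96 ± 0.288, limma adjusted p = 0.000128), Grip1, which couples glutamate receptors to kinesin-1 (1.38 ± 0.0836, limma adjusted p = 1.43e-05), and Rilpl2 (0.86, limma adjusted p = 0.0311). The lowest were Hap1, which links huntingtin to both motors (-3.05 ± 0.0866, limma adjusted p = 5.80e-07), Snph, the anchor that holds axonal mitochondria in place (-1.52 ± 0.0924, limma adjusted p = 1.49e-05), and Borcs6, a subunit of a lysosome transport complex (-1.21 ± 0.158, limma adjusted p = 0.000526). Trak1 and Trak2, which couple mitochondria to kinesin-1 and dynein, were both lower in E18 (-0.98 and -0.66) and are named after their values were seen. In miR-1247 against control, where 3.53% of all features were higher and 6.22% lower, 2 adaptors were higher, Hap1 (0.53, limma adjusted p = 0.0197) and Fez1 (0.26, limma adjusted p = 0.0405). Lower were Ank2 (-0.46, limma adjusted p = 0.00838), Rab11fip3 (-0.42, limma adjusted p = 0.0404), Dnm1l (-0.40, limma adjusted p = 0.0197) and, named to complete the 4, Mapk8ip1 (-0.23, limma adjusted p = 0.0426).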

How the data were processed

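Poly-A RNA of 6 RGC libraries was sequenced as paired reads of 100 bases with a TruSeq kit from RNA with an integrity number of at least 9, per the labels' protocols and design text. Per the submitters' processing notes, the authors mapped reads to mm39 by HISAT2 and obtained FPKM through Cufflinks and Cuffdiff. Versions are not given in the sources used here. The deposited table adds 1e-05 to every value, which was taken off. The deposited log2 ratios of group means were used only as a check and were within 0.0021 of those recomputed. The kit as named keeps no strand, so genes at the same place on opposite strands (Dctn2, Kif3c, Kif2a, Kifc2, Kifc3, Klc3 and Dynlt1a have such neighbours) may share reads. The 2 loci of Kif21a lie at the same coordinates, as do those of Dync1li2, and may share reads as well.

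Loci of 1 name were summed and names with identical loci taken once, giving 10162 features, of which 9987 with a mean of at least 1 FPKM were tested, all 42 members among them. All 6 libraries entered 1 limma model (limma 3.58.1, R 4.3.3) of log2(FPKM + 1) with 3 group means and a variance trend. P-values are two-sided, adjusted over all features (Benjamini-Hochberg) and called at 0.05. Fold changes are on the log2(FPKM + 1) scale, which understates changes of low genes. The model was tested on simulated data. Python 3.11.15, pandas 2.3.3, NumPy 2.4.6 and Matplotlib 3.10.9 were used for tables and plots.

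The members and lists were chosen with earlier results of these data known. Values by library are given for the 6 highest members called in E18 against control and up to 6 lowest (5 were called). They are also given for all members called in miR-1247 against control and the 5 most abundant. Members at 0 in a group and those of small families except Klc3 have them too. For some of these members, such as Kif26a, Kif13a and Dynlt1f, only control and E18 values are printed. Companion genes are named for the 3 highest and 3 lowest calls, by fold change. The replicate number is not a stated pairing, so the main model has no replicate block. Same-numbered libraries did not deviate together either (correlations of -0.008 to 0.004). Alternatives were the pseudocount, the filter, the scaling, separate loci, no variance trend, only 2 groups, the replicate block and each library left out. Leaving out Dctn3 was added after seeing the data. Sequences are from RefSeq (GRCm38.p6) and, for seed matches, GRCm39 with GENCODE vM39.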

Additional observations from a re-analysis of the deposited data

How the results depend on the processing

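The 23 higher and 5 lower motor genes in E18 against control and the 27 and 9 against miR-1247 stayed within 1.5 times under all 17 settings. At a mean of at least 5 FPKM only 33 members were tested, with 20 higher and 5 lower in E18 than in control. Of the 28 calls against control 27 held in every setting that tested them, all but Kifc3. Of the 36 calls against miR-1247, 30 did so. Kif5b (-0.33) and Dync1li2 (-0.22) were also lower in E18 than in control under median ratio scaling (limma adjusted p = 0.0174 and 0.0324). Counts in miR-1247 against control depended on the setting. The 9 lower genes became 5 under median ratio scaling, 5 with equal totals without mitochondrial genes, 4 with only the 2 groups compared, and 1 without a variance trend. With each library left out in turn the count of lower genes was 1 to 2, while over all features it was 88 to 181 (621 as reported) and that of higher ones 35 to 94 (353 as reported). The count of higher motor genes, 0 as reported, was 1 under a pseudocount of 5 FPKM, a mean of at least 5 FPKM, median ratio scaling, equal totals without mitochondrial genes, and only the 2 groups compared, Dynlrb1 each time. Of all calls in that comparison, 36.2% were higher as deposited, 46.6% under median ratio scaling, 14.9% at equal totals and 47.4% at equal totals without mitochondrial genes. The median of all features moved from -0.029 to -0.123 at equal totals. The cause of these shifts was not tested.

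With the replicate number as a block, 4 motor genes were lower in miR-1247 than in control. The labels do not state that these numbers pair the libraries. The log2 fold change of Kif21a in E18 against miR-1247 was -0.82 on the sum and 0.23 when its second locus was fitted alone (limma adjusted p = 0.0332), because the first locus is near 0 in E18. The depth of the libraries is unknown, and low members such as Klc3, Kif22 and the Dynlt1 copies cannot be given a counting error.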
